A study of Mus musculus with 12 samples.

Results

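DNA methylation was examined at 6 mouse loci that encode transcription factors of lymphoid development: Ebf1, Pax5, Ikzf1, Bcl11a, Bcl11b and Gata3. CpGs were taken from a fixed mm9 window around each gene when at least 10 reads, summed over both strands, covered them in at least 2 libraries of every group. The rule kept 1554 CpGs of the 2462 listed in the windows, out of 1157487 autosomal CpGs that passed it genome-wide. It used no methylation value, and all 6 genes had CpGs that passed.

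The measurements come from reduced representation bisulfite sequencing, in which DNA is cut with MspI and short CpG-rich fragments are sequenced after bisulfite treatment, which converts unmethylated cytosine. The cells were bone marrow cells sorted as LSK, the fraction without lineage markers and with Sca1 and cKit that holds blood stem and early progenitor cells, from C57BL/6 mice 6 months of age. There were 4 groups of 3 libraries. The first carried Nras G12D, an activated form of the signalling GTPase Nras, another was Tet2 knockout, written Tet2(-/-), without the enzyme Tet2 that oxidises methylcytosine, and the other two carried both changes, in animals without and with leukemia. All alleles are conditional to the hematopoietic tissue per the series design. The driver of recombination is not given in the sources used here. The leukemic group was read from a prefix in the sample titles together with the series design, and it also carries the abbreviation BMT in its descriptions, which the labels do not expand. Wild type was not analysed here, so each genotype was compared with another mutant genotype. Since the labels do not state that each library is a separate animal, every p-value here refers to library spread alone, which may be technical. The files hold no expression, so the sort could not be checked against marker genes.

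In blood formation, Ebf1 and Pax5 act in sequence to commit progenitors to the B lineage and to maintain it, and Ikzf1, which encodes Ikaros, and Bcl11a act earlier in lymphoid progenitors. Bcl11b is required for commitment to the T lineage, and Gata3 acts in T cells and innate lymphoid cells. CpG-rich promoters of developmental regulators usually stay unmethylated even where the gene is silent, while CpGs in gene bodies and between genes are mostly methylated, and TET enzymes remove methylation from sites such as enhancers.

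The promoters whose CpGs could be recognised in the data are shown here, because their methylation is reported next. The files name no gene and use mm9, so the 8 RefSeq promoter windows of these genes (build GRCm38.p6, 300 bases each) were placed by the spacing of their CpGs. A window was accepted where at least 5 measured CpGs all fell on its CGs at a single position, which held for 5 windows. The 250 bases before the start are given 5′ to 3′ on the strand of the gene for 4 of them, and capitals mark CpGs that were measured. A capital at the last base belongs to a CpG that spans the start site.
Pax5: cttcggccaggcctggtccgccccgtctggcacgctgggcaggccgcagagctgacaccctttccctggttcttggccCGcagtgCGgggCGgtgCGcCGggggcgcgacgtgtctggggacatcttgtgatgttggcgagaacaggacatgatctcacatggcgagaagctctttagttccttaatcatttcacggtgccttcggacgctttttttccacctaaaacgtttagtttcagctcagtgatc
Ikzf1: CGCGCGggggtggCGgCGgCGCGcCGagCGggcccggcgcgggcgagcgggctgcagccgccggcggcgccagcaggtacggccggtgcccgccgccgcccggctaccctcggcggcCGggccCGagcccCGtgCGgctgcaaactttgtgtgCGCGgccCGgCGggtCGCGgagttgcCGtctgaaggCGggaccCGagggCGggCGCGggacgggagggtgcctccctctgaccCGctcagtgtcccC
Bcl11b: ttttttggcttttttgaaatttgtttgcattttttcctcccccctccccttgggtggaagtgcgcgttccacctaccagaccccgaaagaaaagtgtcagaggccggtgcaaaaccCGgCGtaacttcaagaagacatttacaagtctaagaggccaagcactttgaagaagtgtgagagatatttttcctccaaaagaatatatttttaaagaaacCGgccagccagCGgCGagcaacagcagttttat
Gata3: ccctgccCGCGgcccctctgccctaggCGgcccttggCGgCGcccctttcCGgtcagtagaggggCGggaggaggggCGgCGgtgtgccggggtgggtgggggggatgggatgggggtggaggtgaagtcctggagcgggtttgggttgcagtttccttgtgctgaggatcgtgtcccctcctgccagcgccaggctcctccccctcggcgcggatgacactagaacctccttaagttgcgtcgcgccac
The fifth window, of Bcl11a, had 8 measured CpGs, of which 1 lay before the start, and it is not printed. Both Ebf1 windows and the second Ikzf1 window could not be placed. The MspI site CCGG, which reads the same on both strands and sets which CpGs are sampled, occurred 7 times in the Ikzf1 window, 3 times each in those of Bcl11b and Bcl11a, 2 times in that of Gata3 and 1 time in that of Pax5. Of 32851 RefSeq mouse promoter windows of the same length, 52.8% held at least 1 CCGG. The number of measured CpGs in the placed windows was 34 for Ikzf1, 9 for Gata3 and 5 each for Bcl11b and Pax5.

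These promoter CpGs carried little methylation in every group. The 34 CpGs of Ikzf1 (mm9 chr11:11585678-11585965) averaged 0.042%, 0% and 0.593% in the Nras G12D libraries, 0.102%, 0.138% and 0.0334% in Tet2 knockout, 0.146%, 0.0807% and 0.264% for the nonleukemic double mutant, and 0.037%, 0.0251% and 0.0366% in the leukemic one. The 9 CpGs of Gata3 (chr2:9800396-9800470) were also near 0, with a maximum of 0.292% in any library. All groups were thus below 1%, and at Gata3 the leukemic libraries, at 0.27%, 0.206% and 0.292%, were above all 9 others. Mitochondrial cytosines read 0.222% to 1% methylated over the libraries, and 0.428%, 0.924% and 0.404% in the leukemic ones. The Gata3 values are below these, so gaps of this size cannot be told from incomplete conversion or read error. The same limit holds for other levels below 1% given here. The CpGs printed for Bcl11b (chr12:109241642-109241758) were less uniform, at 0% to 10.8% with a median of 3.89%. In the leukemic libraries they read 6.89%, 10.8% and 0%, which spans the values of the other groups.

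At Pax5 the 5 measured CpGs (chr4:44723717-44723738), of 19 CGs before the start, lay in the shore of a low island and not inside one. They read 10.8%, 7.89% and 5.15% in Nras G12D, 5.95%, 14.7% and 5.26% in Tet2 knockout, 4.18%, 7.47% and 9.4% for the nonleukemic double mutant, and 0%, 19.3% and 0% in the leukemic double mutant. The leukemic libraries thus held both the lowest and the highest value at this site.

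CpGs were sorted into 3 classes by their mean over all 12 libraries and their position. A low island was a run of at least 10 consecutive CpGs, each under 20% and at most 500 bp apart, a shore was any other CpG within 2000 bp of a low island, and the rest were called outside CpGs. The low level of an island is therefore part of its definition. Of the CpGs at the 6 loci, 943 (60.7%) were in low islands, 110 (7.08%) in shores and 501 (32.2%) outside, against 54.1%, 3.54% and 42.4% of all autosomal CpGs. For tests, each low island was 1 region, and shore and outside CpGs were grouped by 1000-bp bins with at least 3 CpGs. This gave 118 regions at the 6 loci, 24 low islands, 15 shore and 79 outside regions, among 98988 on the autosomes. Regions are numbered by gene and class in the order of their mm9 position. No exon or intron is assigned, since no mm9 annotation was used here.

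**Figure D1:**
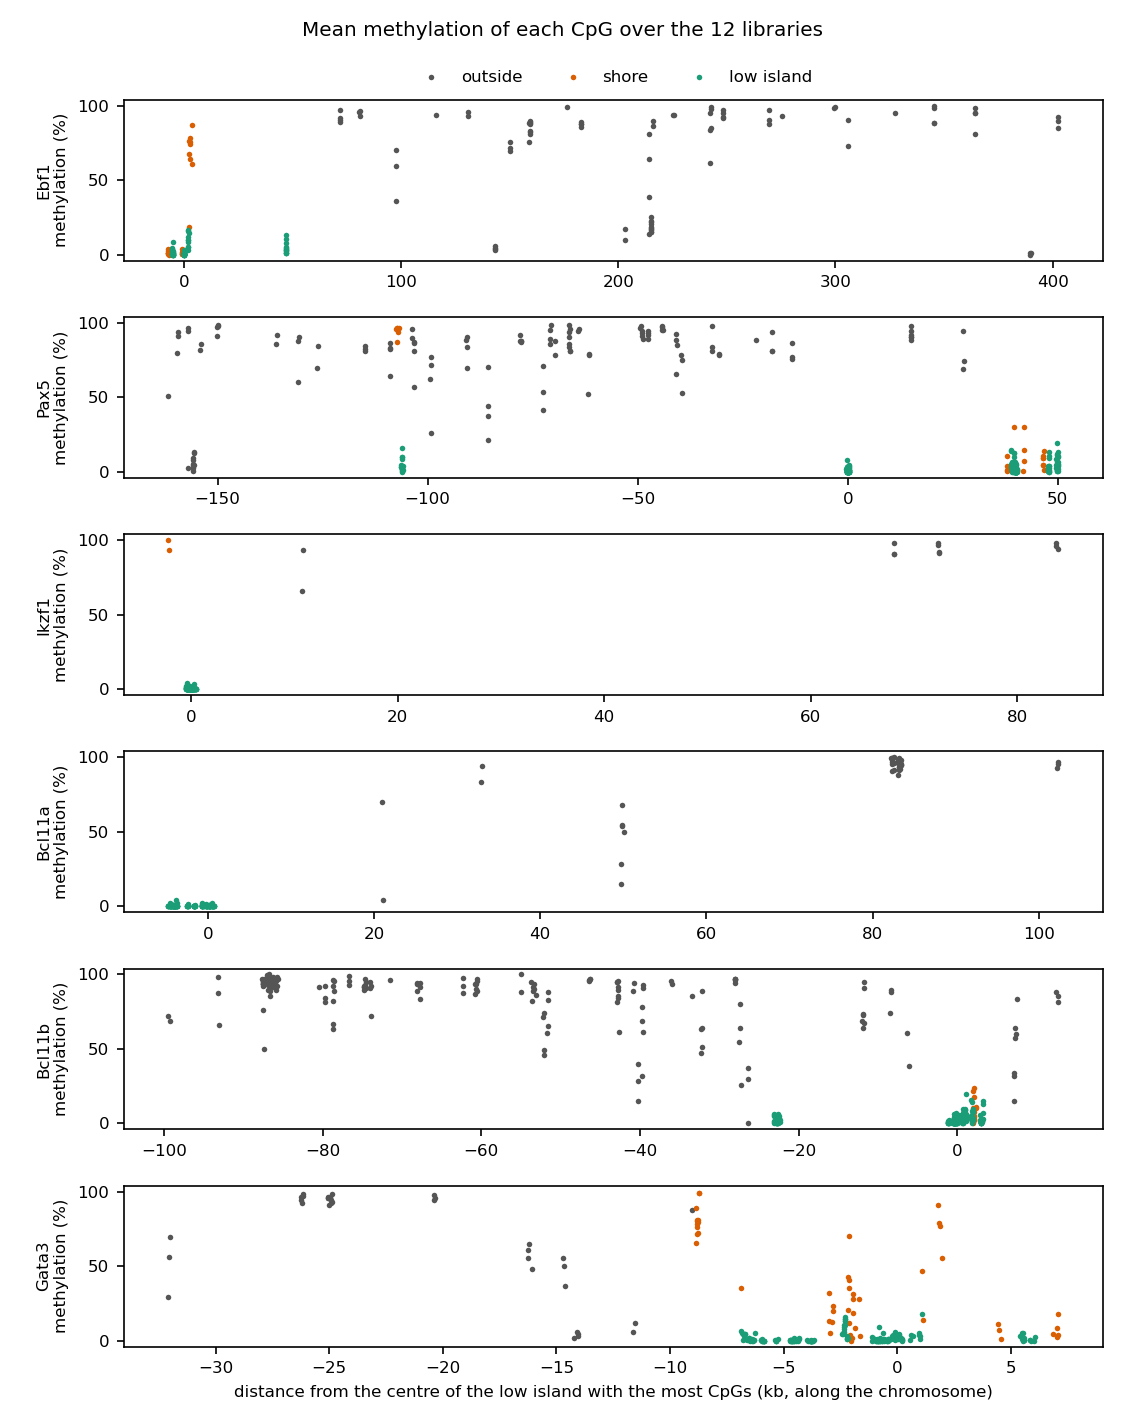
Mean methylation over the 12 libraries (vertical axis, percent) of every CpG that passed the rule at each of the 6 loci, against its distance in kb from the centre of the low island with the most CpGs, along the chromosome and not by gene strand. Low island CpGs (green) lie near 0, shore CpGs are orange and outside CpGs (grey) are mostly above 80%, with groups of intermediate CpGs at Ebf1, Pax5, Bcl11a, Bcl11b and Gata3.

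The loci differed in how much of what was measured was low island. Ikzf1 had 1 low island with 111 CpGs in 1035 bp (chr11:11585379-11586413), which held 88.8% of its 125 CpGs. Bcl11a had 4 low islands with 76.0% of its 204 CpGs between positions 23976668 and 23982150, and it had no shore CpG. Gata3 had 5 with 67.8% of 261 CpGs, and Pax5 6 with 62.1% of 383 CpGs spread over the window. Bcl11b had 4 with 47.9% of 403 CpGs, and Ebf1 had 4 with 38.8% of 178. The longest was Bcl11b low island 2, of 112 CpGs in 2371 bp (chr12:109240253-109242623), which contains the promoter CpGs printed above.

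Within the low islands, the level was close to 0 at Ikzf1 and Bcl11a and slightly higher at the other genes. Ikzf1 low island 1 averaged 0.209% ± 0.206 (SD, n = 3) in Nras G12D, 0.35% ± 0.312 in Tet2 knockout, 0.565% ± 0.479 for the nonleukemic and 0.3% ± 0.35 in the leukemic double mutant. The 4 Bcl11a islands averaged 0.129% to 0.378% over the 12 libraries. The highest averages were at small islands, 8.9% at Ebf1 low island 3 (10 CpGs), 6.96% at Bcl11b low island 3 (14 CpGs) and 6.84% at Pax5 low island 6 (19 CpGs). The median over the 24 islands was 1.68%, beside 0.429% over all 13865 autosomal low islands. No test was made of that difference.

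Group means of the 24 low islands ran from 0% to 11.4%, and none of these islands was called in the leukemic comparisons. Calls were rare over all 13865 autosomal low islands, at 0.0505% against the nonleukemic double mutant, 0.0505% against Tet2 knockout and 0.0144% against Nras G12D. The class rule limits such calls, because island CpGs were chosen for a low mean over all libraries, leukemic ones included. A call required 10 points, and the 24 islands averaged at most 8.9%, which left little room for a fall. A large gain could take CpGs out of the class. The lack of calls therefore cannot show that low islands were unchanged. The largest island of each gene differed by less than 1 point between any 2 groups. Ebf1 low island 2 (27 CpGs, chr11:44431782-44432029) was at 0.0664% to 0.583% in the 9 libraries not labelled leukemic and at 1.78%, 0.432% and 1.27% in the leukemic ones. Pax5 low island 2 (71 CpGs) averaged 0.565% ± 0.186 in the nonleukemic and 1.5% ± 0.948 in the leukemic double mutant. Bcl11a low island 4 (67 CpGs) was at 0.296% ± 0.0389 and 0.34% ± 0.319, Bcl11b low island 2 at 2.27% ± 0.434 and 1.67% ± 0.66, and Gata3 low island 4 (68 CpGs) at 1.85% ± 0.208 and 1.73% ± 0.232. These gaps were within the spread of the libraries or under 1 point.

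Of the 24, 1 low island passed the p threshold without the size threshold. Ebf1 low island 4 (12 CpGs, chr11:44478857-44479033) read 3.03%, 0.203% and 0.889% in Tet2 knockout and 13.2%, 5.88% and 7.37% in the leukemic double mutant, so that every leukemic library was above every Tet2 knockout library. The difference was 7.44 points with an adjusted p of 0.0197 (quasi-binomial test with Benjamini-Hochberg adjustment over all regions), below the 10 points that a call required. Nras G12D libraries were at 5.95%, 6.92% and 2.17% and nonleukemic double mutants at 3.65%, 5.13% and 3.23%. Against the nonleukemic double mutant the adjusted p was 0.149. At Pax5 low island 5 (18 CpGs, chr4:44724896-44725131), 1 library stood apart. Tet2 knockout replicate 2 read 18.6% (Wilson 95% interval 16.6% to 20.8%, of 1360 reads), and the 11 other libraries 0.283% to 5.19%.

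Shores ranged from unmethylated to nearly fully methylated, and none of the 15 shore regions at these loci was called in the leukemic comparisons. Over all 5924 autosomal shore regions, 5.94% were called against the nonleukemic double mutant, 10.6% against Tet2 knockout and 3.53% against Nras G12D. The flanks of Ebf1 show the range. Ebf1 shore 1 (8 CpGs, chr11:44424719-44424886) stayed at 0% to 3.11% in all libraries, whereas Ebf1 shore 3 (7 CpGs, chr11:44434082-44434774), which begins next to a low island, averaged 69.5%. The leukemic libraries of Ebf1 shore 3 read 48.9%, 65.3% and 61%, and the nonleukemic double mutants 85.4%, 79.6% and 64.6%. This is the shore region with the largest difference at Ebf1, -18.11 points, and the groups overlapped (adjusted p 0.121, quasi-binomial). In the other direction, Bcl11b shore 1 (15 CpGs) read 6.03%, 7.27% and 7.36% in the nonleukemic and 13.6%, 8.02% and 15% in the leukemic double mutant, without overlap, a gap of 5.31 points with an adjusted p of 0.131.

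Gata3 had the most shore CpGs, 49, between and around its 5 low islands. Gata3 shore 2 (11 CpGs, chr2:9802101-9802989) read 33.5%, 37.3% and 34.5% in the nonleukemic and 44.8%, 21.3% and 19.6% in the leukemic double mutant, and 28.6%, 3.93% and 36.8% in Tet2 knockout. These values overlap, with a spread of 14.1 points (SD) among the leukemic libraries. At Pax5, shore 5, which contains the promoter CpGs, averaged 7.35% ± 2.82 in the nonleukemic and 5.4% ± 9.36 in the leukemic double mutant. Over all shore CpGs of the 6 loci, the leukemic mean was 30.5% ± 3.53 and the nonleukemic 32.7% ± 0.36, while over all autosomal shore CpGs they were 43.3% ± 1.66 and 49.1% ± 0.122. The loci and the autosomes were not tested against each other.

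Outside the low islands and shores, most CpGs were methylated. Of the 501 outside CpGs, 357 (71.3%) were above 80%, 107 (21.4%) between 20% and 80% and 37 (7.39%) below 20%, against 77.2%, 15.4% and 7.4% of all autosomal outside CpGs. By region, 25 of the 79 (31.6%) were between 20% and 80%, against 16.8% of the 79199 outside regions of the autosomes. Some regions described here were chosen after their values were seen, namely Ebf1 low islands 3 and 4, Bcl11b low island 3, Pax5 low islands 5 and 6, Ebf1 shore 1, Bcl11b outside 15, 18, 23 and 24, the Ikzf1 outside regions, the dense methylated stretches, the neighbouring Ebf1 regions 7, 4 and 14, Pax5 outside 11, 13 and 17, and regions named for a single library.

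Regions of intermediate methylation varied between libraries. Ebf1 outside 7 and 8 are adjacent (8 and 7 CpGs, chr11:44646142-44647903) and averaged 35.8% and 26.1%, with libraries from 14.9% to 43.7% and from 8.09% to 49.6%. Bcl11a outside 1 (6 CpGs, chr11:24031110-24031467) averaged 41.5%, with libraries from 14.7% to 60.3%. Pax5 outside 11 (4 CpGs, chr4:44591575-44591711) averaged 38.3%, with libraries from 22.3% to 54%. At Bcl11b, the 4 intermediate regions with at least 7 CpGs, outside 15, 18, 23 and 24, averaged 67%, 56%, 74.3% and 51.9%. Unmethylated regions that were no low island also occurred, such as Ebf1 outside 4 (4 CpGs, chr11:44575014-44575064) and 14 (3 CpGs, chr11:44821668-44821758), which averaged 4.33% and 0.678%.

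Dense stretches of CpGs that were methylated also occurred. At Bcl11a, the 9 and 27 CpGs of outside 2 and 3 (chr11:24063661-24064842) averaged 97.2% and 96% over the libraries. At Bcl11b, the 13, 36 and 15 CpGs of outside 2, 3 and 4 (chr12:109153851-109155862) averaged 88.9%, 95.4% and 95.1%. The 36 CpGs of Bcl11b outside 3 equal the median CpG number of autosomal low islands, 36. Outside regions with at least 9 CpGs and a mean above 80% made up 7 of 79 (8.86%) at the 6 loci and 6.19% of all outside regions.

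The comparison of the leukemic with the nonleukemic double mutant sets leukemia against its absence on the same genotype. Whatever BMT stands for in the descriptions of the leukemic samples cannot be told apart from leukemia here. The leukemic libraries had less methylation of outside CpGs, which leave out shores, at the 6 genes, by 3.15 to 8.19 points in the mean. At Ebf1 the 87 outside CpGs averaged 70.8%, 70.7% and 72.8% in the nonleukemic and 64.8%, 61.1% and 63.7% in the leukemic libraries. At Pax5 the 123 outside CpGs averaged 78.3%, 78% and 78.4%, and 73.2%, 67.8% and 73.7%. Both genes gave leukemic values below those of all 9 other libraries.

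Ikzf1 (12 CpGs) averaged 91.7%, 92.1% and 93.8% against 90.5%, 84.4% and 90.5%, and Bcl11a (49 CpGs) 88.6%, 85.4% and 87.4% against 83.2%, 83.5% and 85%. Bcl11b (195 CpGs) averaged 85.5%, 84.6% and 83.4% against 83.8%, 80% and 80.3%, with 1 leukemic library above the lowest nonleukemic one. Gata3 (35 CpGs) averaged 69.8%, 68.2% and 66.9% against 61.5%, 64.4% and 64.2%. The 2 groups did not overlap at Ebf1, Pax5, Ikzf1, Bcl11a and Gata3, and they overlapped at Bcl11b.

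As leukemic minus nonleukemic differences of means, Ebf1 had -8.19 points, followed by Pax5 at -6.69, Gata3 at -4.88, Ikzf1 at -4.08, Bcl11a at -3.23 and Bcl11b at -3.15. Over all 490494 autosomal outside CpGs the difference was -5.96 points, from 82.9% ± 0.109 to 76.9% ± 1.51 (SD, n = 3 each), again without overlap. The loci lie on either side of this genome-wide value. An exact two-sided permutation test of 3 libraries against 3 cannot go below p = 0.1, which these 5 genes reached, and the adjusted value over the 96 tests of gene, class and contrast was 0.436.

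The CpGs averaged were not the same in every library. With only CpGs that had 10 reads in all 12 libraries, the differences were -8.66 points at Ebf1 (73 CpGs), -6.58 at Pax5 (88), -4.09 at Bcl11a (31), -3.57 at Bcl11b (137), -2.25 at Ikzf1 (8) and -2.11 at Gata3 (26), and -5.64 over all autosomes. On this basis the groups did not overlap at Ebf1, Pax5, Bcl11a and Bcl11b, and they overlapped at Ikzf1 and Gata3. With reads summed over CpGs in place of the mean over CpGs, the Pax5 difference was -11.93 and the Gata3 difference -9.59 points. The other genes moved less, to -9.24 points at Ebf1, -3.78 at Ikzf1, -3.99 at Bcl11a and -3.35 at Bcl11b. No autosomal value with reads summed is given, so these differences cannot be set against the genome-wide ones.

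**Figure D2:**
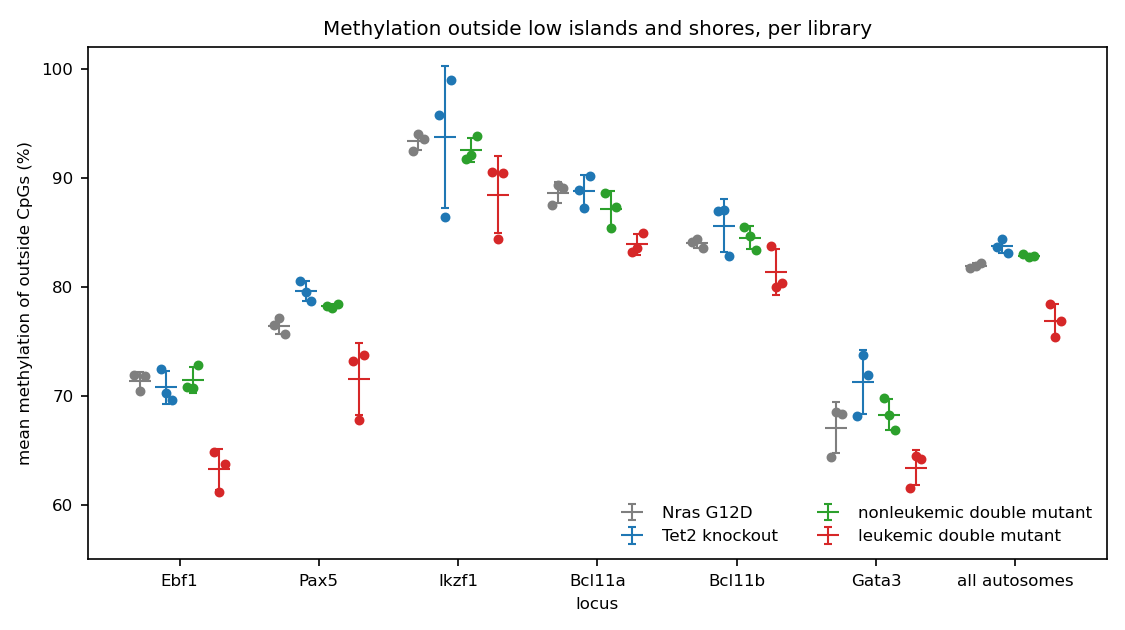
Mean methylation of outside CpGs (vertical axis, percent, from 55%) in each of the 12 libraries (points) at the 6 loci and over all autosomes, with the mean and SD of each group of 3 libraries. Leukemic libraries (red) are lowest in 5 of the 6 loci against the nonleukemic double mutant (green), and at Bcl11b 1 leukemic library lies within the range of the others.

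Against the other 2 genotypes, the leukemic outside means were also lower. The differences from Tet2 knockout were -7.51 points at Ebf1, -8.03 at Pax5, -4.88 at Bcl11a and -7.87 at Gata3, all without overlap, and -5.27 at Ikzf1 and -4.26 at Bcl11b, which overlapped, beside -6.83 over all autosomes. From Nras G12D they were -8.1 at Ebf1, -4.86 at Pax5, -4.89 at Ikzf1 and -4.75 at Bcl11a, also without overlap, and -2.66 at Bcl11b and -3.68 at Gata3, which overlapped, beside -5.04 over all autosomes. With CpGs read in all 12 libraries, Gata3 overlapped with Tet2 knockout at -4.3 points, Ikzf1 overlapped with Nras G12D at -2.86 points, and Bcl11b was without overlap in both, at -3.95 and -3.08 points. These comparisons share the leukemic libraries, so they are not independent of each other.

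By region, 64 of the 79 outside regions (81.0%) were lower in the leukemic than in the nonleukemic double mutant, with a median difference of -5.85 points, against 79.3% and -4.25 points over all autosomal outside regions. Without overlap between the libraries, 12 of the 79 (15.2%) were lower, and genome-wide this held for 22.9% of outside regions. At the level of called regions, 1 of 118 met both call thresholds, adjusted p below 0.05 and 10 points or more, where 4.51% of all autosomal regions did, and among outside regions the share called lower was 1 of 79 against 5.04% genome-wide. Leukemic against Tet2 knockout gave 2 called regions of 118, both outside and lower, against 8.35% of all regions and 9.45% of outside regions called lower. Leukemic against Nras G12D gave 0, against 2.45% and 2.68%. The share of regions called at these loci was below the genome-wide share in all 3 leukemic comparisons, and that gap was not tested.

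**Figure D3:**
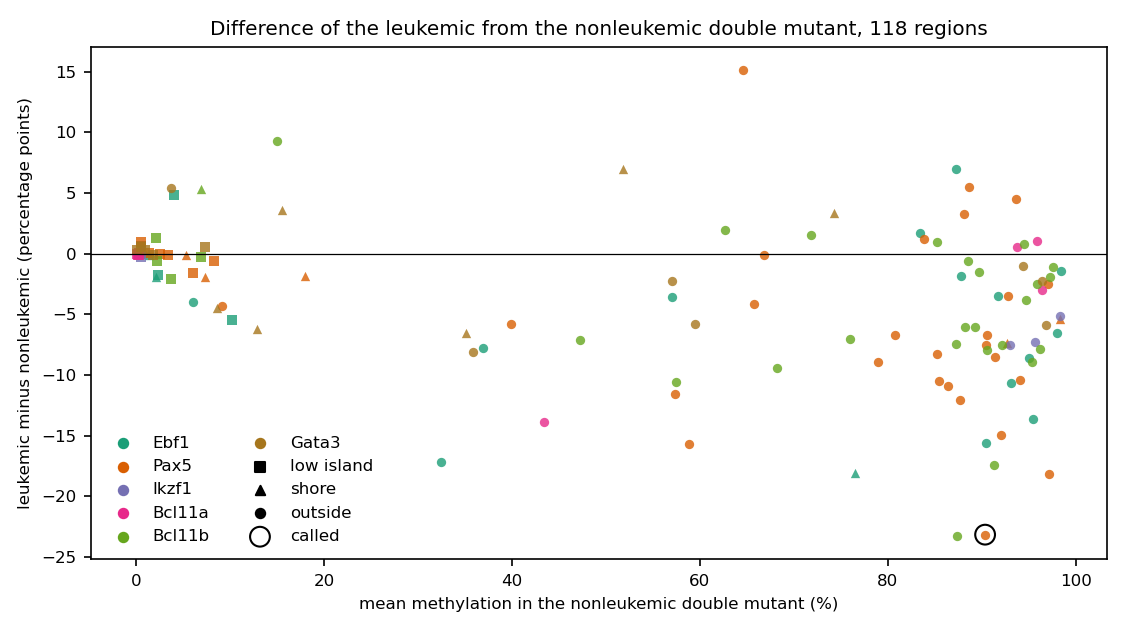
Difference of the leukemic from the nonleukemic double mutant (vertical axis, percentage points) for the 118 regions against their mean methylation in the nonleukemic double mutant (percent), coloured by gene, with squares for low islands, triangles for shores and circles for outside regions. Low islands sit at the left near 0, outside regions mostly lie below the line, and the ring marks the called region, Pax5 outside 26 at -23.15 points.

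The called regions each held 3 CpGs. Pax5 outside 26 (chr4:44704767-44704878) read 85.1%, 93.4% and 92.6% in the nonleukemic and 58.1%, 66.7% and 76.9% in the leukemic double mutant, from 112 to 257 reads per library. Every leukemic library was below every nonleukemic one. It fell by 23.15 points (adjusted p 0.0354, quasi-binomial). Its Nras G12D libraries read 78.8%, 78.9% and 73.2%, and against them the difference was -9.74 points with an adjusted p of 0.414. The nonleukemic double mutant was thus the highest group at this site, and the middle CpG at position 44704806 averaged 85.2% in the nonleukemic and 57.2% in the leukemic double mutant, with Nras G12D at 66.7% and Tet2 knockout at 65.8%. At its last CpG, position 44704877, Nras G12D replicate 3 read 4.35% and leukemic replicate 3 read 100%.

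Ebf1 outside 11 (chr11:44701428-44701489) read 98.4%, 100% and 99.6% in Tet2 knockout and 72%, 78.1% and 97.3% in the leukemic double mutant. The difference of -16.84 points was called (adjusted p 0.042), and the third leukemic library lay just below the lowest Tet2 knockout library. At its last CpG, leukemic replicate 1 was at 0% and the other leukemic libraries at 100%. Bcl11b outside 1 (chr12:109148206-109148429) read 97.1%, 100% and 91.3% in Tet2 knockout and 49.2%, 75.5% and 67.9% in the leukemic double mutant. The difference of -31.98 points was called (adjusted p 0.0425), and its nonleukemic double mutants read 83.6%, 88.6% and 90.1%. The first of its CpGs was at 100% in all leukemic libraries, and the low values came from the other 2, whose leukemic means were 64.1% and 41.5%. At the middle CpG leukemic replicate 3 was at 100%. The last CpG also varied in other groups, at 56% and 64% in nonleukemic replicates 1 and 3, with replicate 2 under 10 reads. There Nras G12D read 84.6%, 100% and 10%, and Tet2 knockout 92.9%, 100% and 96.4%.

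These calls depended on the test and on single libraries. The quasi-binomial test shared 1 spread per region over all 12 libraries, and the leukemic libraries differed most among themselves. Limma on log2 ratios called none of the 118 regions in any comparison, with 8, 14 and 11 regions at an unadjusted p under 0.05 for leukemic against nonleukemic, Tet2 knockout and Nras G12D, where the quasi-binomial test gave 18, 27 and 13. Those quasi-binomial counts are 15.3%, 22.9% and 11% of the 118, beside 23%, 28.3% and 20% of all autosomal regions. For limma the genome-wide share at that threshold is not given here, so its counts have no background to be set against. Over the 98988 autosomal regions limma called 15, 1380 and 0. Without any 1 of the 3 nonleukemic libraries, or without leukemic replicate 1 or 2, Pax5 outside 26 was no longer called, at -18.61 to -25.79 points. Without any 1 Tet2 knockout library neither Ebf1 outside 11 nor Bcl11b outside 1 was called. Without leukemic replicate 1 the first gave -11.61 and the second -24.46 points and both calls were lost, and without leukemic replicate 2 Ebf1 outside 11 was lost at -14.66 points.

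**Figure D4:**
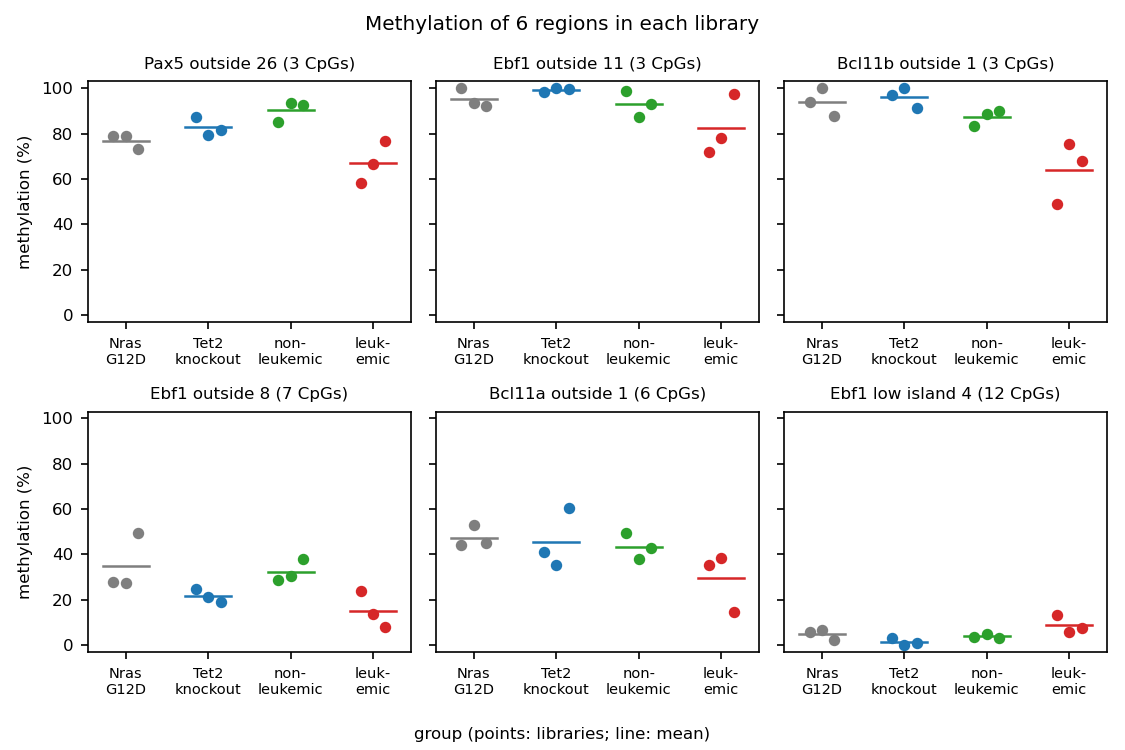
Methylation (vertical axis, percent) of 6 regions in each library (points) by group, with the group mean as a line. The upper panels are the 3 called regions, and the lower panels are Ebf1 outside 8 and Bcl11a outside 1, which averaged 26.1% and 41.5% over the 12 libraries and were not called, and Ebf1 low island 4, where the leukemic libraries were at 5.88% to 13.2%.

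Among regions with at least 5 CpGs, the largest outside difference of each gene was as follows. Ebf1 outside 8 (7 CpGs, chr11:44647046-44647903) read 28.8%, 30.7% and 37.8% in the nonleukemic and 23.9%, 13.7% and 8.09% in the leukemic double mutant, without overlap. The difference of -17.17 points had an adjusted p of 0.0781 (quasi-binomial), and with the 6 CpGs that had 10 reads in every library it was -20.53 points and was called (adjusted p 0.0463). Its Tet2 knockout libraries, at 24.9%, 21.3% and 19.1%, overlapped with the leukemic ones. The adjacent outside 7 read 39.1%, 31.1% and 40.4% in the nonleukemic and 34%, 14.9% and 38.6% in the leukemic double mutant, where only replicate 2 was low.

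Bcl11a outside 1 read 49.5%, 37.8% and 42.9% in the nonleukemic and 35.5%, 38.4% and 14.7% in the leukemic double mutant, a difference of -13.87 points that came mostly from replicate 3. Pax5 outside 15 (5 CpGs, chr4:44610795-44610963) read 88.2%, 91.4% and 91.7%, and 87.4%, 79.1% and 82.3%, without overlap at -7.53 points. Gata3 outside 2 (5 CpGs, chr2:9778845-9778935) read 98%, 97.3% and 95.4%, and 96.4%, 91.5% and 85.2%, which overlap. Neither of them was called, with adjusted p values of 0.404 and 0.2 (quasi-binomial). Ikzf1 had no outside region of that size, and its 3 regions of 3 or 4 CpGs gave -7.53, -7.27 and -5.1 points, none called. At Ikzf1 outside 1, 1 library each of Nras G12D and Tet2 knockout had no CpG with 10 reads.

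Bcl11b outside 20 (6 CpGs, chr12:109213402-109213966) shows how uneven coverage can set a region's value. It read 91.8%, 91.2% and 90.8% in the nonleukemic and 44.3%, 94.6% and 82.8% in the leukemic double mutant, and 13.5% in Tet2 knockout replicate 2. In those 2 low libraries only the last CpG, at position 109213965, had 10 reads, and that CpG read 13.5% to 77.8% in 11 libraries and 1.2% in Tet2 knockout replicate 3. The first 5 CpGs were at 75% or more wherever they were read. Of the 118 regions, 40 had all their CpGs read in all 12 libraries.

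The dense methylated stretches of Bcl11a and Bcl11b were high in all libraries, with Bcl11b outside 2 at 85.5% to 95.6%, Bcl11b outside 4 at 90.2% or more and Bcl11a outside 2 at 92.5% to 100%. In those 3 the leukemic libraries overlapped with the nonleukemic ones. Bcl11a outside 3 (27 CpGs) read 97%, 95.5% and 96.7% in the nonleukemic, 97.2%, 97.4% and 98% in Tet2 knockout and 93.9%, 94.4% and 92% in the leukemic libraries. The leukemic libraries were below all others, and the difference from Tet2 knockout, -4.1 points, had an adjusted p of 0.0126 (quasi-binomial) without reaching 10 points. Bcl11b outside 3 (36 CpGs) had the same order of values, at 97.4%, 94.6% and 95.7% in the nonleukemic and 94%, 93.5% and 92.8% in the leukemic double mutant, -2.47 points with an adjusted p of 0.216.

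A region that went the other way was Pax5 outside 17 (3 CpGs, chr4:44615497-44615658), at 62%, 69.4% and 62.3% in the nonleukemic and 61.9%, 79.3% and 97.9% in the leukemic double mutant. The groups overlapped, and the region was not called (adjusted p 0.618, quasi-binomial). At Pax5 outside 13 (3 CpGs) 1 nonleukemic library had no CpG with 10 reads, and the leukemic libraries read 68.2%, 27.8% and 33.3%.

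The 3 comparisons without the leukemic group set loss of Tet2, activated Nras and their combination against each other, in libraries not labelled leukemic. At the 6 loci none of the 118 regions was called in any of them. Tet2 knockout against Nras G12D called 0% of autosomal regions, the nonleukemic double mutant against Tet2 knockout 0.00101% and against Nras G12D 0.00303%. At an unadjusted p under 0.05 there were 6, 3 and 4 of the 118 regions by the quasi-binomial test and 4, 4 and 2 by limma. The quasi-binomial counts are 5.08%, 2.54% and 3.39% of the 118, near the 5.72%, 3.12% and 2.68% of all autosomal regions. The genome-wide share for limma is not given here.

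Among gene means, Pax5 outside CpGs separated the 3 groups. They averaged 76.5%, 77.1% and 75.6% in Nras G12D, then 80.5%, 79.5% and 78.7% in Tet2 knockout, and 78.3%, 78% and 78.4% for the nonleukemic double mutant. The 3 groups did not overlap, and Tet2 knockout was 3.17 points above Nras G12D (exact permutation p = 0.1, the smallest possible). Over all autosomal outside CpGs the 3 groups had the same order, also without overlap, and Tet2 knockout was 1.79 points above Nras G12D. The separation is thus not particular to Pax5. With Pax5 CpGs read in all 12 libraries, Tet2 knockout minus Nras G12D was 1.64 points with overlap. On that basis the nonleukemic double mutant minus Tet2 knockout changed sign at Pax5, from -1.34 points to 0.24 points, also with overlap. The nonleukemic double mutant stayed above Nras G12D without overlap, at 1.88 points. Ebf1 shore CpGs averaged 26%, 25.5% and 25.6% in Nras G12D and 28.9%, 33.4% and 26.5% in Tet2 knockout, 3.92 points apart without overlap, where all autosomal shore CpGs were 2.26 points apart in the same direction, also without overlap, and the other genes' outside means overlapped between these groups.

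Positions that read apart in 1 library were few. Strand positions below 10% in a single library while the 11 remaining ones exceeded 70%, or vice versa, are called flips, and the windows held 8. Tet2 knockout replicate 2 held 4 of them, at Ikzf1, Bcl11a and Gata3, and leukemic replicate 1 held 2, both at Bcl11b. Pax5 had none.

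Library totals over all listed cytosines were 96300485 to 199736369 reads, the highest in leukemic replicate 1 and the lowest in Tet2 knockout replicate 2. The median CpG of the 6 windows had 65 to 118 reads per library, and 8 of the 118 regions had a library without any CpG at 10 reads. Low islands were read most deeply, Ikzf1 low island 1 by 7350 to 21301 reads per library. Bcl11b outside 1 had as few as 37. PCR copies cannot be told from molecules, so intervals cover counting error only.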

How the data were processed

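The deposited tables give, for each cytosine and strand, a read count (coverage) and, as percent, how many of those showed C or T. Per the submitters' processing notes, Bismark and build mm9 (NCBIM37) were used by the authors, with versions not given in the sources used here. Every listed position has at least 10 reads. Methylated and unmethylated counts were computed from coverage and percent, rounded, and summed over both strands. The members, windows, classes and lists were chosen with earlier results of these data known.

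Each region's reads, summed over its CpGs with at least 10 reads in that library, were fitted with a quasi-binomial model on group over all 12 libraries. Dispersions were shrunk as squeezeVar of limma does, with a floor of 1, contrasts were F tests, and p-values were Benjamini-Hochberg adjusted over 98988 autosomal regions. Gene means were compared by exact permutation. Regions named, per gene, were the low island with the most CpGs, the shore and outside regions with the largest leukemic minus nonleukemic difference among those with at least 5 CpGs, and called regions (up to 3 per gene). Other regions described were chosen after their values were seen. The fit was tested on simulated data with the same spread in all groups. That does not check it at the wider spread of the leukemic libraries given below. Replicates differed beyond counting noise. Mean chi-square values per CpG were 12.1 to 19.4 between leukemic libraries and 3.74 to 10.3 between libraries within the other groups. The fit used 1 dispersion per region for all 12 libraries. The p-values of leukemic comparisons may therefore understate the spread of the leukemic libraries. Alternatives were other coverage minimums, classes, bins, call sizes and libraries, a replicate block, and limma. The files name no gene, so no other lymphoid genes were analysed. Software was R 4.3.3 with limma 3.58.1, and Python 3.11.15 with pandas 2.3.3, SciPy 1.17.1, NumPy 2.4.6 and matplotlib 3.10.9.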

Additional observations from a re-analysis of the deposited data

How the results depend on the processing

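The counts of called regions at the 6 loci in the 3 comparisons without the leukemic group stayed at 0 under all alternatives run. For leukemic against the nonleukemic double mutant (1 called), the count was 2 with 10 reads in all 12 libraries, 4 without the 3 libraries with most flips, and 0 with limma on log2 ratios, with only the 6 libraries compared, after removing the 3 libraries that have Y chromosome reads, and with at least 5 CpGs per region. The 3 libraries with most flips are not named here. Flip counts in the windows do not identify them, since leukemic replicate 3 and Tet2 knockout replicate 3 tied at 1. The libraries with Y chromosome reads were Tet2 knockout replicates 1 and 2 and nonleukemic replicate 1. No leukemic or Nras G12D library was among them, so they were unevenly spread over the groups. Removing them leaves 1 Tet2 knockout library, so no count is given for that setting against Tet2 knockout. For leukemic against Tet2 knockout (2 called), the count was 4 at a call size of 5 points and 1 at 20 points. It was 1 in bins not parted by class, and 0 with 10 reads in all 12 libraries, limma, the 6 libraries compared, or at least 5 CpGs. For leukemic against Nras G12D (0 called), it was 1 with a coverage minimum of 20. Leaving out each library in turn gave 0 to 4, 0 to 6 and 0 to 3 called regions in these comparisons. Leaving out leukemic replicate 1 gave 4, 6 and 3, and leaving out leukemic replicate 3 gave 4, 4 and 1. The cause was not tested. Genome-wide shares are not given here for these settings, so the counts cannot show whether the 6 loci changed more than the autosomes.

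The replicate block left the 6 counts at 0, 0, 0, 1, 2 and 0. Same-numbered libraries of different groups showed no pairing, with correlations of deviations from the group mean of -0.0106 to 0.0235 over 18 pairs, and 6 of 12 libraries correlated best with their own number.

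Regions with 3 or 4 CpGs, CpGs under 10 reads in single libraries and 3 libraries per group limit what could be detected here. The setting with 10 reads in all 12 libraries was added after seeing the data for the called and named regions and the autosomal mean.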
